A study of Mus musculus with 4 samples.

Results

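The nephric duct and the mesonephric tubules lie beside the gonad in the tissue that was dissected, and 8 genes that mark them were followed across every cell type of the series: Pax2, Pax8, Lhx1, Gata3, Ret, Wnt9b, Cdh16 and Epcam. They were taken by name from the 21495 genes of the integrated count table, with earlier results of these data known and with no threshold on their values, and all 8 had counts. The level of a gene was its share of the UMIs (unique molecular identifiers, 1 per captured transcript) summed over the cells of a type in a sample, scaled to a total of 1000000 (CPM). Particular attention was given to the supporting-like cells (SLCs), a gonadal population that carries Pax8.

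The nephric duct is an epithelial tube that grows tailwards through the intermediate mesoderm, and it induces the neighbouring mesenchyme to form tubules. Pax2, Pax8 and Lhx1 are transcription factors that act early in this lineage. Gata3 is a transcription factor of the duct, and the receptor tyrosine kinase Ret is required for the duct to respond to GDNF. Wnt9b is the duct's signal to the mesenchyme, Cdh16 is a cadherin of kidney tubules, and Epcam is an adhesion protein of epithelia and also of germ cells. Supporting-like cells lie where the gonad meets the mesonephros and are known as a source of the rete, the channels that link the testis cords to the efferent ducts.

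Single-cell RNA was read with the 10x Genomics 3′ chemistry from methanol-fixed cells of pooled mouse gonads with their mesonephroi. The XY control at E11.5 and the XY knockout (KO) at E11.5 and at E11.75 came from embryos made by tetraploid aggregation of mouse embryonic stem cells (line G4, of a C57BL/6J-129 F1 hybrid), and the KO carried a homozygous CRISPR deletion of the miR-17-92 cluster of miRNAs. The XX control at E11.5 came from natural crosses in which the fathers were C57BL/6J and the mothers 129, so that sex and the origin of the embryos cannot be told apart. No control of E11.75 was analysed here, so that stage and genotype cannot be told apart where the later KO is set against the control.

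Each of the 4 groups was 1 pooled sample. There was therefore no biological replicate and no test of a difference between conditions. Intervals are exact 95% intervals (Poisson for a level, binomial for a share or for a ratio of 2 counts) and cover counting error only. The XY control, the E11.5 KO and the XX control were each held as 2 technical runs of different cells, the E11.75 KO as 1.

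The table held 52745 cells, with 23527 of the XY control, 17057 of the E11.5 KO, 8492 of the E11.75 KO and 3669 of the XX control. Cells were tied to samples by the labels. The study's text lists the cell numbers of both KO stages in the opposite order, and if that order were right the values of the E11.5 KO and the E11.75 KO would change places. The names of the cells showed 2 runs in the group of 17057 cells, labelled E11.5, and 1 run in the group of 8492, labelled E11.75, and the cells deposited as Sertoli numbered 24 in the former and 168 in the latter. The study's methods name the E11.75 KO as the one sample without a repeat run, as in the group labelled E11.75. The study also reports Sertoli cells in the KO at E11.75 and almost none at E11.5. Median depth was 3893, 4763 and 3922 UMIs per cell in the 3 XY samples in that order, and 15509 in the XX control. The deepest cell of an XY sample had 29875 UMIs and that of the XX control 154650. Any pair of the 7 runs shared between 1 and 40 cell barcodes. Mir17hg, the host transcript of the deleted cluster, had a level of 19.8 CPM over all cells of the XY control, 156 over those of the E11.5 KO, 161 over those of the E11.75 KO and 18.2 over those of the XX control. The counts do not show where in the host transcript the 3′ tags lie, so this level does not check the deletion itself. Cell types were those the authors deposited. They were clustered with these 8 genes among the rest, so levels in one type against another are a description.

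The miRNAs of the deleted cluster are shown because the KO lacks them and because a match to their seeds can be looked up in each of the 8 transcripts. They lie on chromosome 14 of GRCm38 (mm10), plus strand, at chr14:115043684-115044496. The mature sequences are from RefSeq, written 5′ to 3′ with the seed (bases 2 to 8) in capitals.
mmu-miR-17-5p: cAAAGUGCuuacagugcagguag
mmu-miR-20a-5p: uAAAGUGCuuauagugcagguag
mmu-miR-18a-5p: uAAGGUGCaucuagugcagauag
mmu-miR-19a-3p: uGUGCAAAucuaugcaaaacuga
mmu-miR-19b-3p: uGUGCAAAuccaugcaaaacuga
mmu-miR-92a-3p: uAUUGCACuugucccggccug
The 6 miRNAs fall into 4 seed groups, since miR-17 and miR-20a share one seed and miR-19a and miR-19b another.

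The 3′ UTR of each gene (its longest in GENCODE M21, on the transcript's own strand) was searched for the letters that pair with each seed: GCACTTT or CACTTTA for miR-17 and miR-20a, GCACCTT or CACCTTA for miR-18a, TTTGCAC or TTGCACA for miR-19a and miR-19b, and GTGCAAT or TGCAATA for miR-92a. The letters of a group overlap each other, and a stretch that held both was counted once. Of the 8 genes only Wnt9b held a match, and it held 2, both to the seed of miR-17 and miR-20a. The first runs at chr11:103730250-103730279 and the second at chr11:103728289-103728318, on the minus strand of mm10, with the matched letters in capitals.
Wnt9b, bases 482 to 489 of the 3′ UTR: gagcaagggaaGCACTTTAggcttgggtgg
Wnt9b, bases 2443 to 2449 of the 3′ UTR: ggatttgtaaaGCACTTTccatcttcagaa
Of 21020 genes with a 3′ UTR, 18.6% held a match for miR-17 and miR-20a and 41.1% held a match for any of the 4 groups. The Wnt9b 3′ UTR, at 3386 bases, was the longest of the 8, and the others ran from 291 bases in Cdh16 to 2108 in Ret. A match of letters is a description and not a site of action.

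None of the 8 genes overlaps another. In GENCODE M21 on mm10, Pax2 is at chr19:44756045-44837871 on the plus strand, Pax8 at chr2:24420560-24475599 on the minus strand, Lhx1 at chr11:84518284-84525535 on the minus strand and Gata3 at chr2:9857078-9890034 on the minus strand. Ret is at chr6:118151745-118197718 on the minus strand, Wnt9b at chr11:103727364-103749821 on the minus strand, Cdh16 at chr8:104601911-104624396 on the minus strand and Epcam at chr17:87635979-87651129 on the plus strand. Annotated genes overlap Pax2 (Gm20395 and 1700039E22Rik on the other strand, Mir6405 on the same), Pax8 (Gm13415 on the other strand) and Gata3 (Gm13256 and 4930412O13Rik on the other strand, 9230102O04Rik on the same). Reads of the same-strand neighbours could be shared with Pax2 and Gata3.

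Where the 8 genes were read differed by gene. In the XY control the cells named mesonephric tubules held 94.1% of all Wnt9b UMIs, 87.6% of those of Cdh16, 71.6% of Pax2, 62.1% of Epcam, 58.2% of Ret, 53.3% of Gata3, 40.6% of Lhx1 and 37.0% of Pax8. Pax8 was therefore the gene whose transcripts lay most outside the tubules. SLCs held 20.3% of its UMIs and the cluster Mesonephros 4 held as many, 392 of 1934 in each. Germ cells held 26.1% of the Lhx1 UMIs and 21.6% of the Epcam UMIs, and the adenosympathic cells held 30.2% of the Ret UMIs and 25.0% of the Gata3 UMIs.

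**Figure D1:**
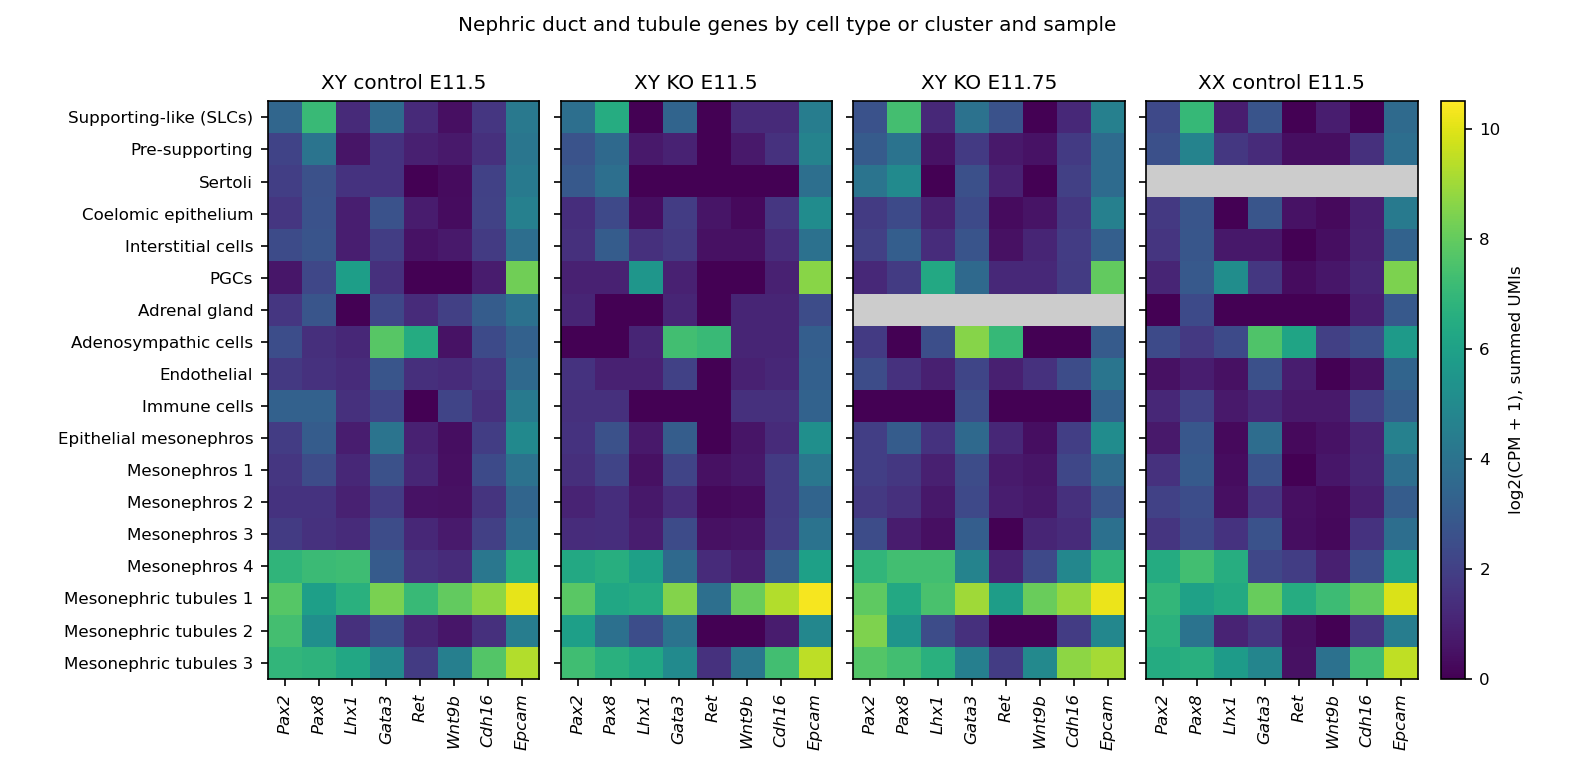
Heat map of the level of the 8 genes, as log2(CPM + 1) of summed UMIs, in the deposited cell types and in the clusters of the tubules and mesonephros, with 1 column for each of the 4 samples and grey where a type had under 20 cells in a sample. The tubule clusters 1 and 3 are high for most genes in all 4 samples, while SLCs are high for Pax8, with at most 6 UMIs of Lhx1, Ret, Wnt9b or Cdh16 in any sample.

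In 8 types that are not nephric (pre-supporting cells, deposited as bipotential progenitors; Sertoli cells, deposited as supporting; coelomic epithelium, deposited as epithelial; and interstitial, epithelial mesonephros, endothelial, immune and adrenal cells), the 28 sums of at least 50 cells gave the low levels against which the rest can be read. Lhx1 reached at most 2.21 CPM there, Ret 1.64, Wnt9b 3.44 and Cdh16 7.33. Pax2 reached 15.6 CPM, Gata3 15.3, Pax8 31.2 and Epcam 36.7, and the median of the 28 sums was 2.34 CPM for Pax2, 3.28 for Gata3, 5.77 for Pax8 and 14.0 for Epcam. Sertoli markers summed to 1594 CPM in Sertoli cells of the XY control and to 218 CPM in its pre-supporting cells, and markers of the coelomic epithelium summed to 1048 CPM in the cells deposited as epithelial and to 533 CPM in the pre-supporting cells.

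SLCs numbered 785 in the XY control, 499 in the E11.5 KO, 174 in the E11.75 KO and 88 in the XX control. Their name was checked against Pax8, Wnt4, Nr5a1, Aldh1a3, Ncam1 and Bmp4. All 6 had counts in every sample, led by Wnt4 at 1463 to 1880 CPM and Ncam1 at 374 to 617 CPM, while Aldh1a3 was low at 7.26 to 36.0 CPM. The 6, of which Pax8 is itself 1, summed to 2081 to 2621 CPM in SLCs and to 794 to 1074 CPM in pre-supporting cells. The pre-supporting markers, which include Wnt4 and Nr5a1 too, were as high in SLCs (2061 to 2934 CPM) as in pre-supporting cells (2214 to 2702 CPM), so that list did not set SLCs apart. The highest of the other genes against the remaining cells included Htra1, Greb1 and Plac8.

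In SLCs, Pax8 was the only one of the 8 genes above the levels of the non-nephric types in all 4 samples. Its level was 139 CPM in the XY control (392 UMIs, interval 125 to 153), 88.9 CPM in the E11.5 KO (196 UMIs, 76.9 to 102), 163 CPM in the E11.75 KO (122 UMIs, 135 to 194) and 130 CPM in the XX control (161 UMIs, 111 to 152). The E11.5 KO was thus the lowest of the 4, and its interval did not meet any other. The runs of a sample lay close together, at 135 and 143 CPM in the XY control, 94.6 and 83.9 in the E11.5 KO and 129 and 131 in the XX control.

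On the log2 scale, Pax8 in SLCs of the E11.5 KO over the XY control was −0.64 (−0.89 to −0.39). The same ratio over all 11086 genes with at least 20 UMIs in the pair had a median of −0.10, so Pax8 lay below the shift of the whole profile. The E11.75 KO over the E11.5 KO was 0.88 (0.53 to 1.21), where the median of all genes was 0.26. The E11.75 KO over the XY control was 0.24 (−0.07 to 0.53) against a median of 0.17, and the XX control over the XY control was −0.09 (−0.37 to 0.18) against −0.11. The 3 comparisons against the XY control share that sample. None of the 4 Pax8 ratios reached 2-fold, and in cells with at least 5000 UMIs the first was −1.06.

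**Figure D2:**
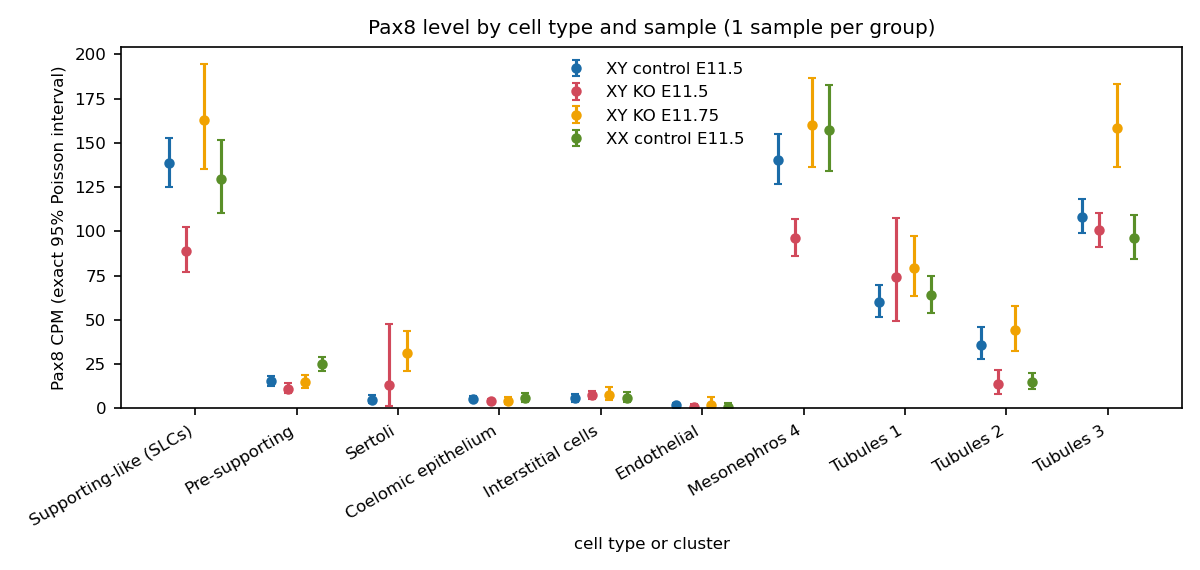
Pax8 level in CPM of summed UMIs by cell type or cluster and sample, with points for the sums and bars for exact 95% Poisson intervals. SLCs sit between 88.9 and 163 CPM in the 4 samples, with the E11.5 KO lowest, and pre-supporting cells sit between 11.1 and 24.9 CPM.

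Other genes moved with the groups in SLCs as well. Among erythroid genes, the globin Hbb-y was at 2167 CPM in SLCs of the XY control, 770 in the E11.5 KO, 1052 in the E11.75 KO and 565 in the XX control. The Sertoli markers summed to 94.4, 46.3, 129 and 97.6 CPM in the same order, with 6, 6, 5 and 5 of 6 detected. The median mitochondrial share was 5.04%, 5.06%, 6.70% and 3.81%. Mesonephric mesenchyme markers summed to 174, 279, 291 and 102 CPM with 4 of 5 detected in each sample, fetal adrenal cortex markers to 76.7, 39.0, 9.34 and 75.0 CPM with 6, 6, 4 and 5 of 6 detected, and immune markers to 27.9, 3.63, 1.33 and 16.9 CPM with 6, 4, 1 and 6 of 6 detected. Endothelial markers summed to 46.3, 76.7, 84.1 and 25.0 CPM with 5, 5, 4 and 5 of 5 detected. Of the tubule markers outside the 8 genes, Emx2 was at 178, 181, 303 and 177 CPM and Krt8 at 37.8, 44.9, 38.7 and 46.8 CPM. The part of these in the Pax8 levels was not tested. Totals that left out globin, mitochondrial and ribosomal protein genes gave −0.58 in place of −0.64.

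The share of SLCs with a Pax8 UMI was compared after each cell was thinned to 3000 UMIs, since depth differed between the samples. It was 32.3% in the XY control (167 of 517 cells, interval 28.3 to 36.5), 22.1% in the E11.5 KO (97 of 438, 18.3 to 26.3), 38.3% in the E11.75 KO (54 of 141, 30.2 to 46.9) and 22.1% in the XX control (19 of 86, 13.9 to 32.3). Cells shallower than this were left out, 268, 61, 33 and 2 in that order, and the median depth of the cells kept was 3927, 4505, 4345 and 13499 UMIs before thinning. The E11.5 KO was again below the XY control and the E11.75 KO. Without thinning the shares were 36.8%, 30.3%, 45.4% and 70.5%, and the high share in the XX control went with its depth.

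Endothelial cells, which should lack the gene, had it in 0.491% of cells in the XY control, 0.362% in the E11.5 KO, 0.699% in the E11.75 KO and 1.25% in the XX control at the same thinning, from cells of a median 6609, 9376, 5879 and 20892 UMIs. The share in SLCs was above that level in every sample. Pre-supporting cells lay between, at 3.54%, 3.30%, 3.37% and 6.02% in the same order.

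Pre-supporting cells, the progenitors of Sertoli and granulosa cells, had Pax8 at 15.3 CPM in the XY control (121 UMIs), 11.1 in the E11.5 KO (67 UMIs), 14.8 in the E11.75 KO (68 UMIs) and 24.9 in the XX control (169 UMIs). Within a sample, SLCs were 9.03-fold above them in the XY control (7.35 to 11.2), 8.0-fold in the E11.5 KO (6.03 to 10.7), 11-fold in the E11.75 KO (8.10 to 15) and 5.21-fold in the XX control (4.17 to 6.51). Both types of cell came from the same sample in each ratio, and the intervals of the E11.5 KO and the XY control overlapped. In Sertoli cells Pax8 was 5.06 CPM in the XY control (21 UMIs) and 31.2 CPM in the E11.75 KO (32 UMIs). In the E11.5 KO 2 UMIs were read, from 24 Sertoli cells against 752 in the XY control. That count therefore does not show a lower level than in the XY control.

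Of the other transcription factors, Pax2 in SLCs was 9.90 CPM in the XY control (28 UMIs), 13.2 in the E11.5 KO (29 UMIs), 5.34 in the E11.75 KO (4 UMIs) and 4.03 in the XX control (5 UMIs). The first 2 lay within the range of the non-nephric types only through its top value, 15.6 CPM in Sertoli cells of the E11.75 KO (16 UMIs), and above the next, 8.60 CPM in immune cells of the XY control (5 UMIs). Gata3 was 11.3, 9.53, 14.7 and 5.65 CPM in the same order, under the top of the non-nephric range, 15.3 CPM in the epithelial mesonephros. In pre-supporting, Sertoli, coelomic epithelium, interstitial, endothelial and immune cells Gata3 was at most 5.89 CPM. SLCs of the XY samples lay above that value. The XX control lay just under it, from 7 UMIs, too few to set it apart from that value. Lhx1 had 4, 0, 1 and 1 UMIs, so no level could be set apart from background at this depth.

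The remaining 4 genes had few UMIs or lay within that range. Ret had 4, 0, 4 and 0 UMIs in SLCs, and its 4 UMIs in the E11.75 KO gave 5.34 CPM (interval 1.45 to 13.7), above the 1.64 CPM that it reached in the non-nephric types. Wnt9b had 1, 3, 0 and 1 UMIs and Cdh16 had 6, 3, 1 and 0. Epcam was 18.0, 20.9, 22.7 and 11.3 CPM, which is within the range of the non-nephric types. Its share of thinned cells, 4.45%, 6.39%, 7.80% and 8.14%, stood beside 2.45%, 2.17%, 1.40% and 8.75% in endothelial cells. In the XX control it was thus no higher than that background. Cdh1, a cadherin of epithelia, had at most 6 UMIs in SLCs of any sample and 0 in the E11.75 KO.

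Pax8 and Pax2 are both carried by nephric cells. They were seldom read in the same SLC, where Pax2 itself was low. Of the thinned SLCs with a Pax8 UMI, 2.40% also had a Pax2 UMI in the XY control (4 of 167), 6.19% in the E11.5 KO (6 of 97), and none of 54 in the E11.75 KO (upper bound 6.60%) or of 19 in the XX control (17.6%). In the tubule cluster 3 the same share was 32.9%, 40.8%, 56.6% and 23.8%, and in Mesonephros 4 it was 37.9%, 30.6%, 32.7% and 34.6%. Pax2 was at 86.9 to 203 CPM in cluster 3, 79.7 to 118 in Mesonephros 4 and 4.03 to 13.2 in SLCs. These shares depend on that level, so they do not show whether both genes are kept apart in SLCs. SLCs with a UMI of another of the 8 genes, Epcam aside, were 8.41%, 9.42%, 11% and 13.6% of all SLCs. Without them Pax8 was at 137, 87.7, 163 and 131 CPM, so those cells did not carry its level.

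Counts of the 8 genes past 2-fold in SLCs were small. In the E11.5 KO over the XY control, 0 of the 4 genes with enough counts (Pax2, Pax8, Gata3 and Epcam) passed, where 1.01% of all genes were at least 2-fold higher and 2.54% at least 2-fold lower. Their median log2 ratio was −0.01 beside −0.10 for all genes. Pax2 was lower in the E11.75 KO over the E11.5 KO, with 4 against 29 UMIs (−1.16, interval −3.27 to 0.21), where 10.6% of genes were higher and 2.64% lower, and in the XX control over the XY control Pax2 was lower with 5 against 28 UMIs (−1.18, −3.02 to 0.10), where 0.962% were higher and 4.28% lower. Both of these intervals take in 0. No gene of the 8 passed in the E11.75 KO over the XY control (6.32% higher and 3.17% lower over all genes).

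The cells named mesonephric tubules, 1721 in the XY control, 920 in the E11.5 KO, 515 in the E11.75 KO and 357 in the XX control, are 3 clusters joined under 1 name. Their content was checked against tubule markers other than the 8 genes, among them the cadherin Cdh1, the transcription factor Emx2 and the keratin Krt8. Over the 4 samples of cluster 1, Cdh1 was at 89.2 to 248 CPM, Emx2 at 352 to 516 CPM and Krt8 at 417 to 497 CPM. In cluster 3 the same genes were at 134 to 185, 218 to 405 and 91.4 to 335 CPM. The leading genes of cluster 1 included Wnt9b, Mal2, Cldn8 and Cldn4, with Calb1 and Gata3 near the top, genes of the duct. Cluster 3 was led by Clec18a, Irx1, Hnf4a and Ggt1, with the transporter Slc12a1 further down, genes of tubule epithelium.

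Cluster 2 did not bear out the name. Cdh1 was at 0.346 to 1.76 CPM in it, Emx2 at 18.9 to 42.3 CPM and Krt8 at 8.81 to 21.1 CPM. Its leading genes were Six2, Myog, Ttn, Uncx, Myod1 and Eya1. Six2 and Eya1 mark nephron progenitor mesenchyme, and Myog, Myod1 and Ttn mark muscle. It is called cluster 2 here.

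**Figure D3:**
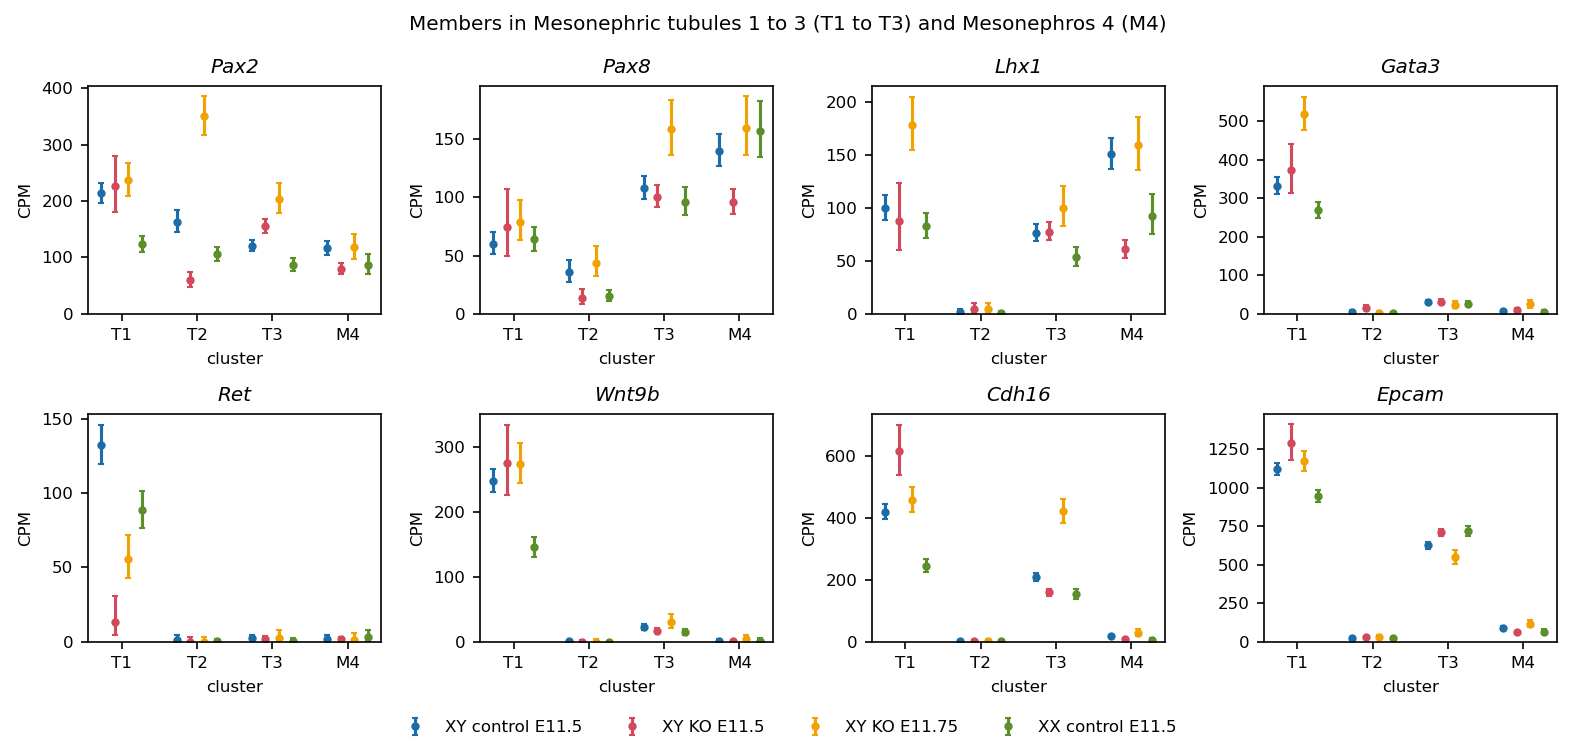
Levels of the 8 genes in CPM of summed UMIs in the 3 clusters deposited as mesonephric tubules (T1 to T3) and in Mesonephros 4 (M4). There is 1 colour per sample, and bars are exact 95% Poisson intervals. Ret in T1 runs from 13.3 CPM in the E11.5 KO to 132 in the XY control, while Gata3 in T1 runs from 269 to 518 CPM and Wnt9b from 146 to 276.

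Read over all tubule cells, duct genes were low in the E11.5 KO. Gata3 was 122 CPM in the XY control, 49.4 in the E11.5 KO, 178 in the E11.75 KO and 91.0 in the XX control. Wnt9b was 90.9, 29.3, 100.2 and 48.8 CPM in the same order. Ret was 44.1, 2.16, 19.2 and 27.1 CPM, from 399 UMIs in the XY control and 13 in the E11.5 KO. In each of the 3 the E11.5 KO was the lowest sample.

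The log2 ratio of the E11.5 KO over the XY control was −1.30 (−1.50 to −1.12) for Gata3, −1.63 (−1.88 to −1.40) for Wnt9b and −4.29 (−5.27 to −3.56) for Ret. The other 5 genes lay between −0.63 for Cdh16 and 0.02 for Pax8. So 3 of the 8 genes were at least 2-fold lower and none higher, where 3.87% of all genes were lower and 1.97% higher, and the median of the 8 was −0.41 beside −0.09. The E11.75 KO over the E11.5 KO was 1.85 for Gata3, 1.77 for Wnt9b and 3.11 for Ret, 3 of 8 higher where 6.7% of all genes were higher and 2.97% lower.

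Only Ret passed in the E11.75 KO over the XY control, at −1.19 (−1.60 to −0.82), where 3.05% of genes were lower and 3.13% higher. In the XX control over the XY control none of the 8 passed (1.07% higher and 5.29% lower over all genes), though all 8 were below 0, from −0.33 to −0.92, with the median of all genes at −0.18.

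The clusters made up the tubule cells in different shares, and this moved with the levels of Gata3 and Wnt9b. Cluster 1, where both genes were highest, held 31.3% of the tubule cells of the XY control, 4.78% of those of the E11.5 KO, 33.4% of those of the E11.75 KO and 25.5% of those of the XX control. The clusters were formed with these genes among others, so the shares are given as a description. Weighting the clusters of each sample as in the XY control, a setting chosen after the values were seen, gave log2 ratios of the E11.5 KO of 0.18 for Gata3 and 0.10 for Wnt9b. Ret was at −3.09 under the same weights, computed with no prior count, and at −4.35 in the same way with the clusters as they came. Cdh16 was at 0.22 with these weights in place of −0.63, and Epcam at 0.20 in place of −0.16. Pax2 was then at 0.01, Lhx1 at −0.06 and Pax8 at −0.07.

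**Figure D4:**
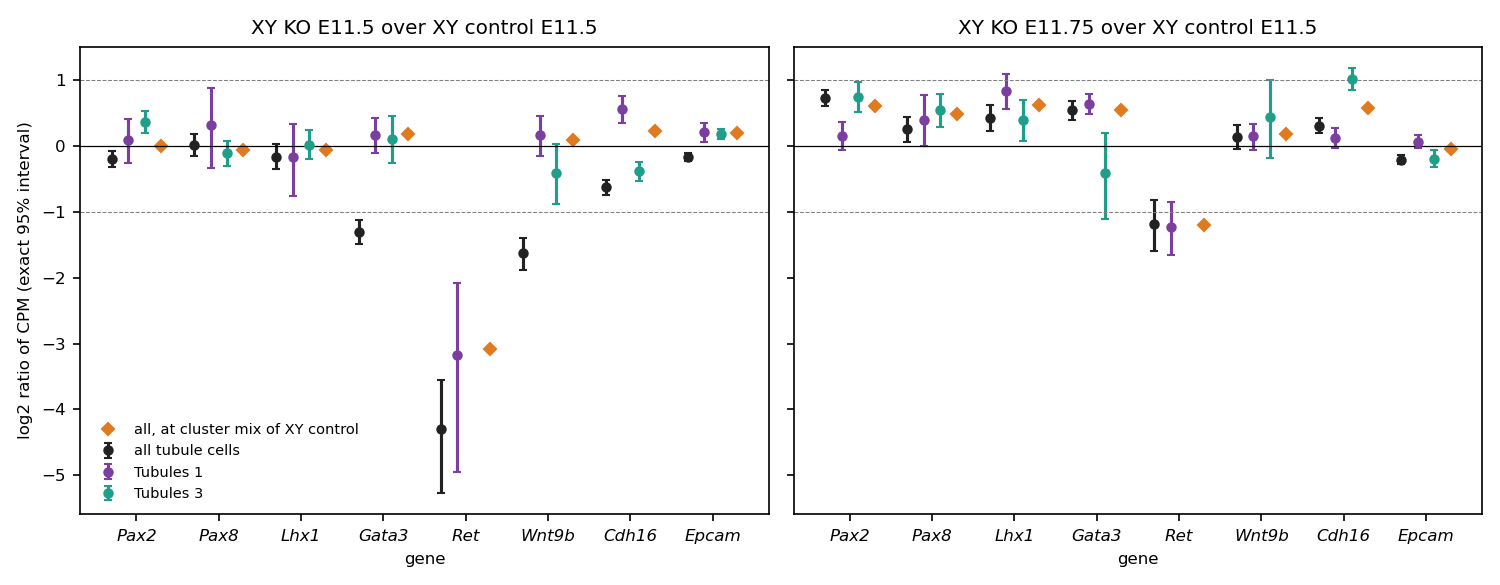
Log2 ratios of each KO sample over the XY control for the 8 genes, with black points for all tubule cells, purple for cluster 1, green for cluster 3, orange diamonds for clusters weighted as in the XY control, bars for exact 95% intervals and dashed lines at 2-fold. In the E11.5 KO, Gata3 is at −1.30 over all tubule cells and at 0.18 at the control's cluster weights, while Ret is at −4.29 and −3.09, the weighted values being computed with no prior count.

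Within cluster 1 (539 cells in the XY control, 44 in the E11.5 KO, 172 in the E11.75 KO and 91 in the XX control), Ret was the only one of the 8 past 2-fold in the E11.5 KO. Its level was 132 CPM in the XY control (386 UMIs, interval 120 to 146), 13.3 CPM in the E11.5 KO (5 UMIs, 4.31 to 31.0), 55.8 CPM in the E11.75 KO (62 UMIs, 42.8 to 71.5) and 88.4 CPM in the XX control (209 UMIs, 76.8 to 101). No interval met another, and both KO samples lay below both controls. The runs were at 138 and 126 CPM in the XY control, 105 and 72.8 in the XX control, and 4.53 (1 UMI) and 25.7 (4 UMIs) in the E11.5 KO.

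The log2 ratio of Ret in cluster 1 was −3.18 (−4.95 to −2.08) for the E11.5 KO over the XY control and −1.24 (−1.66 to −0.86) for the E11.75 KO over the XY control. It was 1.94 (0.77 to 3.74) for the E11.75 KO over the E11.5 KO and −0.58 (−0.83 to −0.34) for the XX control over the XY control. The run of the E11.5 KO with 1 UMI gave −4.35 against the same-numbered run of the XY control, and the other run gave −2.13. Other genes moved in cluster 1 as well. Mesonephric mesenchyme markers summed to 149 CPM in the XY control, 274 in the E11.5 KO, 254 in the E11.75 KO and 141 in the XX control, with 5, 3, 5 and 5 of 5 detected, and the globin Hbb-y was at 1452, 438, 731 and 5283 CPM. The median mitochondrial share was 4.34%, 5.86%, 5.83% and 3.11%. The part of these in the Ret levels was not tested.

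In cells of cluster 1 thinned to 3000 UMIs, 28.5% had a Ret UMI in the XY control (127 of 445), 5.71% in the E11.5 KO (2 of 35), 12.8% in the E11.75 KO (20 of 156) and 15.4% in the XX control (14 of 91). The share of the E11.5 KO rested on 2 cells, and those of the E11.75 KO and the XX control lay close together.

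Gata3 in cluster 1 was 332 CPM in the XY control, 372 in the E11.5 KO, 518 in the E11.75 KO and 269 in the XX control. Wnt9b was 248, 276, 275 and 146 CPM in the same order, and Cdh16 was 420, 617, 459 and 245 CPM. In the KO samples these duct genes were at or above the XY control.

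Pax2 in cluster 1 was 214 CPM in the XY control, 226 in the E11.5 KO, 237 in the E11.75 KO and 124 in the XX control. Pax8 was 60.4, 74.4, 79.2 and 63.9 CPM, Lhx1 was 99.8, 87.7, 178 and 82.5 CPM, and Epcam was 1119, 1292, 1174 and 947 CPM. Ret was thus the 1 gene of the 8 past 2-fold in the E11.5 KO over the XY control, where 6.1% of all genes were lower and 3.95% higher, and the median of the 8 was 0.16 beside 0.01. Lhx1 and Ret were higher in the E11.75 KO over the E11.5 KO (Lhx1 at 1.0, interval 0.49 to 1.60). The Lhx1 call ended with TMM factors (0.92), with reduced totals (0.97) and with a prior of 5 (0.86). It also ended with run 2 of the E11.5 KO alone (0.67), while run 1 gave 1.26. In that comparison 8.34% of all genes were higher and 3.76% lower. Ret alone was lower in the E11.75 KO over the XY control (2.44% lower and 3.6% higher over all genes), and none passed in the XX control over the XY control (1.06% higher and 2.62% lower).

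Ret was also read in the tubule cells with a Wnt9b UMI, whatever their cluster, a setting likewise chosen after the values were seen. This gate used 1 of the 8 genes, its cells were not thinned, and it did not hold the cluster mix fixed. Of the Wnt9b UMIs of tubule cells, 98 of 823 in the XY control and 72 of 176 in the E11.5 KO came from cluster 3, where Ret was low. These were 407 cells of the XY control, 62 of the E11.5 KO, 140 of the E11.75 KO and 95 of the XX control. Ret in them was 113 CPM (286 UMIs), 6.41 (5 UMIs), 33.0 (36 UMIs) and 69.4 (185 UMIs). Against the XY control this was −4.01 (−5.78 to −2.90) in the E11.5 KO, −1.76 (−2.32 to −1.28) in the E11.75 KO and −0.71 (−0.98 to −0.44) in the XX control. Gata3 in the same cells was 314, 259, 419 and 241 CPM, and Pax2 was 225, 221, 225 and 120 CPM.

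Genes of the GDNF-RET pathway were read from a list of 16 (receptors, ligands, and transcription factors and inhibitors downstream). In cluster 1, 12 of them had enough counts in the E11.5 KO over the XY control, of which none was at least 2-fold higher and 2 were lower, with a median of −0.43 beside 0.01 for all genes, of which 3.95% were higher and 6.1% lower. Of 11 in the E11.75 KO over the E11.5 KO, 7 were higher, with a median of 1.26 beside 0.09 for all genes, of which 8.34% were higher and 3.76% lower. Over the XY control 4 of 12 were higher in the E11.75 KO, with a median of 0.55 beside 0.12 for all genes, of which 3.6% were higher and 2.44% lower. In the XX control none of 12 passed, beside 1.06% higher and 2.62% lower. The list of other duct genes had 2 higher and 2 lower of 16 in cluster 1 of the E11.5 KO over the XY control, with a median of 0.25.

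The following genes of the pathway and the duct were named after their values were seen. Etv5, a transcription factor induced through RET, had 63 UMIs in cluster 1 of the XY control (21.6 CPM), 0 in the E11.5 KO, 62 in the E11.75 KO (55.8 CPM) and 34 in the XX control (14.4 CPM). Etv4, its relative, was 16.1, 7.97, 51.3 and 17.3 CPM, with 3 UMIs in the E11.5 KO. Wnt11, a ligand of duct tips, was 8.92, 0, 40.5 and 7.61 CPM. Against a floor of 3 UMIs, the E11.5 KO was at least 2.71-fold lower than the XY control for Etv5 and at least 1.12-fold lower for Wnt11.

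Robo2, a receptor of SLIT signals, was 62.1 CPM in cluster 1 of the XY control, 18.6 in the E11.5 KO, 116 in the E11.75 KO and 55.8 in the XX control. Gfra1, the co-receptor that binds GDNF for RET, was 47.3, 39.9, 98.1 and 27.9 CPM. Calb1, a calcium-binding protein of the duct, was 885, 476, 641 and 971 CPM. Ret was thus lower in the E11.75 KO than in the XY control while Etv4, Etv5, Wnt11 and Gfra1 were at least 2-fold higher, with log2 ratios of 1.67, 1.37, 2.17 and 1.05.

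**Figure D5:**
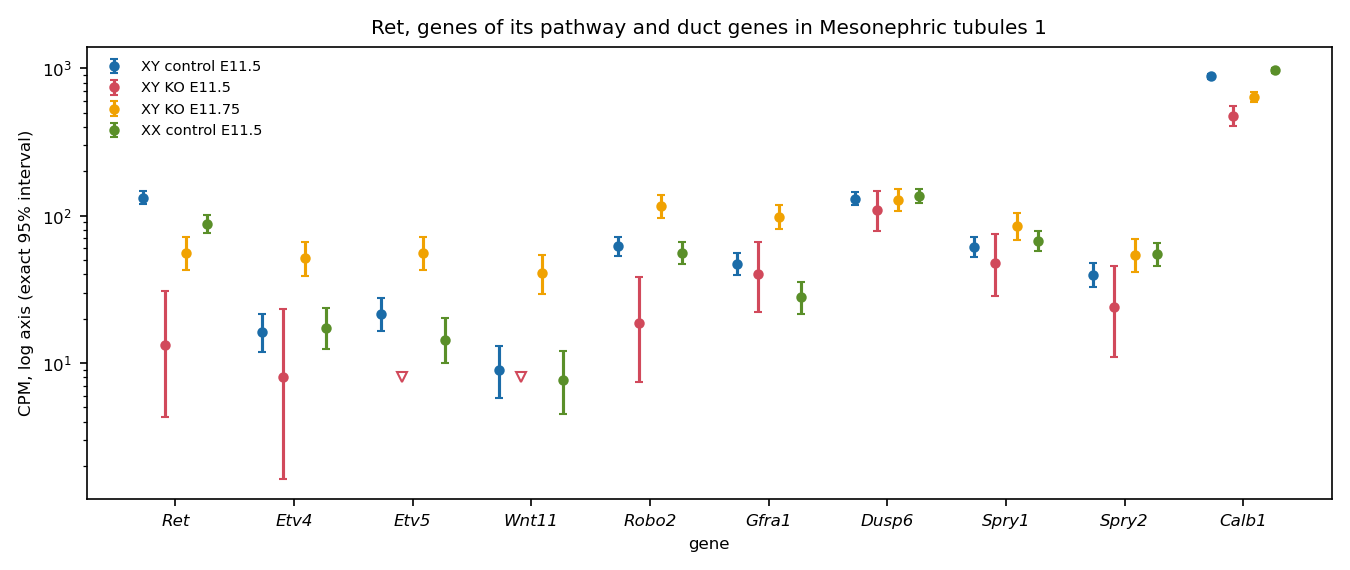
Levels in CPM (log axis) of Ret and 9 genes linked to it in tubule cluster 1 of the 4 samples, with bars for exact 95% Poisson intervals and open triangles, placed at the level of 3 UMIs, for genes with 0 UMIs. Etv5 and Wnt11 had 0 UMIs in the E11.5 KO and 62 and 45 in the E11.75 KO.

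In cluster 3 (776, 604, 157 and 98 cells in the order above), Pax8 was 108 CPM in the XY control, 101 in the E11.5 KO, 158 in the E11.75 KO and 96.4 in the XX control. Pax2 was 121, 156, 203 and 86.9 CPM, and Lhx1 was 76.5, 77.7, 100.3 and 53.5 CPM. The 3 transcription factors were highest in the E11.75 KO. Gata3 was low, from 22.0 to 31.8 CPM, and Wnt9b was 14.2 to 29.9 CPM. Ret had 11, 8, 3 and 1 UMIs.

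Cdh16 in cluster 3 was 208 CPM in the XY control, 159 in the E11.5 KO, 422 in the E11.75 KO and 154 in the XX control, and Epcam was 626, 710, 549 and 719 CPM. None of 7 genes was past 2-fold in the E11.5 KO over the XY control, where 0.817% of all genes were higher and 2.93% lower. Cdh16 alone was past it in the E11.75 KO over the E11.5 KO, at 1.41 (1.23 to 1.58), where 10.8% of genes were higher and 3.51% lower, and over the XY control, at 1.02 (0.86 to 1.18), where 5.26% were higher and 2.94% lower. In the XX control over the XY control none passed (0.932% higher and 6.11% lower).

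In cluster 2 (406, 272, 186 and 168 cells), Pax2 had the most UMIs of the 8 genes in every sample. It was 163 CPM in the XY control (286 UMIs), 60.0 in the E11.5 KO (79 UMIs), 351 in the E11.75 KO (398 UMIs) and 106 in the XX control (306 UMIs). Pax8 was 36.0, 13.7, 44.0 and 14.9 CPM. The log2 ratio of Pax2 was −1.44 (−1.83 to −1.08) in the E11.5 KO over the XY control and 2.54 (2.20 to 2.92) in the E11.75 KO over the E11.5 KO. Of 4 genes with enough counts in the first of these, 2 were lower (Pax2 and Pax8) and 1 higher (Gata3, 20 against 8 UMIs), where 3.92% of all genes were lower and 4.14% higher. All 3 calls ended when cells with muscle genes were left out, as given next.

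Muscle genes moved with Pax2 in that cluster. Cells with a UMI of Myog, Myod1, Ttn, Pax3, Myh3 or Myf5 were 9 of 406 in the XY control, 130 of 272 in the E11.5 KO, 0 of 186 in the E11.75 KO and 8 of 168 in the XX control. Those of the E11.5 KO held 1 Pax2 UMI. Without such cells, a setting also chosen after the values were seen, Pax2 was 168, 128, 351 and 110 CPM, and the E11.5 KO over the XY control was −0.39 (−0.77 to −0.03), no longer past 2-fold. Pax8 was then at −0.38 (−1.28 to 0.38), and Gata3 had 4 against 7 UMIs (0.74, −1.55 to 2.65). Six2, a nephron progenitor factor named after its values were seen, was 158, 53.1, 255 and 170 CPM in all cells of the cluster and 162, 19.7, 255 and 175 CPM without those cells. In the E11.5 KO, cells with a muscle gene UMI had Six2 at 81.8 CPM and Eya1 at 137, beside 19.7 and 49.3 in cells without. In that sample both genes thus did not set nephron progenitors apart from cells with muscle genes.

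Mesonephros 4 (745 cells in the XY control, 773 in the E11.5 KO, 226 in the E11.75 KO and 76 in the XX control) is filed under the mesonephric cells, and its leading genes were Pnoc, Wnt7a, Lypd1 and Runx2, with Lhx1 at rank 15. Pax8 in it was 140 CPM in the XY control, 96.0 in the E11.5 KO, 160 in the E11.75 KO and 157 in the XX control. Lhx1 was 151, 61.0, 159 and 92.8 CPM, and Pax2 was 116, 79.7, 118 and 87.3 CPM. All 3 transcription factors were lowest in the E11.5 KO. Markers of other cells moved in Mesonephros 4 too. Mesonephric mesenchyme markers summed to 353, 561, 630 and 333 CPM with 5 of 5 detected in each sample, coelomic epithelium markers to 112, 162, 192 and 75.3 CPM with 5, 5, 5 and 4 of 6, and endothelial markers to 88.3, 118, 187 and 83.6 CPM with 5, 5, 5 and 3 of 5. The globin Hbb-y was at 2146, 783, 953 and 571 CPM. The part of these in the levels of the 8 genes in that cluster was not tested.

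Epcam in Mesonephros 4 was 90.1, 60.8, 115 and 64.3 CPM, above the non-nephric types in every sample. Cdh16 was 17.2, 7.45, 27.8 and 4.59 CPM, above them in the XY control and the E11.75 KO. In the E11.5 KO its interval (4.87 to 10.9) took in the highest level of those types, 7.33 CPM. Gata3 was 7.15, 10.9, 24.9 and 3.67 CPM, above them in the E11.75 KO alone. In the E11.5 KO over the XY control Lhx1 was at −1.31 (−1.55 to −1.07) and Cdh16 at −1.19 (−1.95 to −0.49), 2 of 6 genes lower where 2.44% of all genes were lower and 0.815% higher, and the median of the 6 was −0.56 beside −0.09. In the E11.75 KO over the E11.5 KO, Lhx1 (1.38), Gata3 (1.20) and Cdh16 (1.90) were higher, 3 of 6, where 6.34% of genes were higher and 1.77% lower. Over the XY control the E11.75 KO passed for Gata3 alone (1.79, with 4.24% higher and 2.14% lower over all genes), and the XX control for Cdh16 alone (−1.78, with 0.937% higher and 3.71% lower).

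Outside the nephric cells, germ cells expressed Lhx1 and Epcam. Lhx1 in them was 57.9 CPM in the XY control (404 UMIs), 45.0 in the E11.5 KO (92 UMIs), 80.9 in the E11.75 KO (126 UMIs) and 34.3 in the XX control (124 UMIs). Epcam was 301, 398, 252 and 341 CPM. Adenosympathic cells, the neural cells of the sympathetic and adrenal lineage, had Gata3 at 216, 158, 386 and 195 CPM and Ret at 85.9 (207 UMIs), 136 (122 UMIs), 129 (54 UMIs) and 68.7 (117 UMIs). In these neural cells Ret in the E11.5 KO over the XY control was 0.66 (0.33 to 0.99), on the other side of 0 from its ratio in cluster 1.

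Further genes of the nephric system were read in 4 lists that share no gene with the 8. Over all tubule cells of the E11.5 KO against the XY control, the other duct genes had 1 higher and 3 lower of 16 (median −0.42), the nephron and tubule genes 3 higher and 5 lower of 24 (0.00), the GDNF-RET genes 0 higher and 4 lower of 16 (−0.18), and the junction and keratin genes 0 higher and 4 lower of 24 (−0.57). Over all genes 1.97% were higher and 3.87% lower, with a median of −0.09. The lowest duct gene was Calb1 (294 CPM in the XY control and 40.8 in the E11.5 KO, −2.85), and the highest were Emx1 (1.01) and Hoxb7 (0.07). Cldn3 (−1.37) and Cldn8 (−1.22), claudins of tight junctions, were the lowest of their list.

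Among the nephron genes Slc34a1, a phosphate transporter of the proximal tubule, was lowest (−1.71). Gdnf, the ligand of RET, was lowest among the GDNF-RET genes (−2.24, 60 against 8 UMIs), followed by Robo2 (−1.43). Most of these Gdnf UMIs lay in cluster 2, which did not bear out the tubule name. Its cells without a muscle gene UMI held 56 in the XY control and 1 in the E11.5 KO (33.0 and 1.64 CPM). Its cells with a muscle gene UMI held 1 and 5. Set against the E11.5 KO, the 4 lists in the E11.75 KO had 8 higher and 1 lower (median 0.90), 6 and 6 (−0.16), 7 and 1 (0.87) and 5 and 0 (0.70), beside 0.24 for all genes, of which 6.7% were higher and 2.97% lower. These pooled ratios carry the unequal cluster shares given above, and also differences within a cluster, as for Gdnf.

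In SLCs few of those genes had enough counts. In the E11.5 KO over the XY control, the duct list had 0 higher and 2 lower of 8 (Calb1 −1.32, Sox9 −1.19), the nephron list 0 and 0 of 8, the GDNF-RET list 1 and 2 of 10 (Gfra2 1.56, Etv5 −1.61, Cxcr4 −1.43), and the junction and keratin list 1 and 2 of 11 (Krt19 1.10, Ocln −1.60, Cldn7 −1.22). Over all 11086 genes 1.01% were higher and 2.54% lower, with a median of −0.10. Sox9, which is a Sertoli factor as well as a duct gene, was 74.9 CPM in SLCs of the XY control and 32.7 in the E11.5 KO. Podxl, of podocytes, was 400 and 334 CPM there.

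Across 48 sums of at least 50 cells and 14897 genes, the genes whose log2(CPM + 1) was most like each of the 8 were found by Pearson correlation. The sums of a sample share its library and depth, so these are descriptions. Those close to Pax2 included Prss8 (0.92) and Slc39a5 (0.88), and those closest to Pax8 were Gm26700, Dact2 and Il34 (0.86 each). For Lhx1 they were Esrp1 (0.91), Glis3 (0.89) and Lhx1os (0.88), for Cdh16 they included Sim1 (0.95) and Itgb6 (0.94), and for Epcam Crb3 (0.93), Cdh1 and Esrp1 (0.92 each).

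Wnt9b was most like Itgb6, Arhgef38 and Kcnj16 (0.94 each). Gata3 was most like Ret (0.91), L1cam (0.89) and Kcnh8 (0.88), and Ret was most like Tfap2a (0.92), L1cam and Gata3 (0.91 each). Among the 8 genes themselves the highest pairs were Wnt9b with Cdh16 (0.93) and Gata3 with Ret (0.91), and Pax8 with Ret was at −0.03. Of the 24 nearest genes, 3 stayed among the nearest by Spearman correlation of CPM and 8 with a pseudocount of 10.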

How the data were processed

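The authors aligned the reads to mm10 with Cell Ranger 6.1.1, removed doublets with DoubletFinder, filtered cells and integrated the samples in Seurat. They deposited raw UMI counts per gene and cell, a mitochondrial percent per cell and their cell type names, which were used as given. The percent of mitochondrial counts was only summarised. No doublet caller was run here. The XY samples reached at most 29875 UMIs per cell and the XX control 154650, so the upper limit on cells differed between them. Samples were taken from the names of the cells, per the labels, and all 126435795 non-zero values were whole.

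Counts were summed per cell type and sample and divided by the sum over all genes (CPM). A ratio used a prior count of 0.5 and was counted only where the pair of samples held at least 20 UMIs of the gene. Past 2-fold meant a log2 ratio of at least 1 in size. With 1 sample a group no test was run. Intervals were exact at 95%, and the floor for a gene at 0 was 3 UMIs. The genes named from the lists were, for SLCs and for tubule cells, the 2 lowest and the 2 highest of each list in the E11.5 KO over the XY control. The 3 genes most like each of the 8 were taken among genes with at least 200 UMIs. Other settings were TMM factors (edgeR 4.0.16 in R 4.3.3), reduced totals, per-cell means, other minima and priors, deep cells and single runs. Ratios and intervals were tested on simulated Poisson counts, the model that the intervals assume. That check did not cover spread between cells or between samples. Python packages were numpy 2.4.6, scipy 1.17.1 and pandas 2.3.3. The 8 genes and the lists were chosen with earlier results of these data known. No columns of per-sample values were left out. A few genes that the rules name are not reported here.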

Additional observations from a re-analysis of the deposited data

Results flagged for a closer look

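Among the populations compared within the E11.5 KO and the XY control, 5 of the 8 genes were above 0 in one and below 0 in another. Counting intervals were apart from 0 in both, and at least 1 of both values was past 2-fold. For each gene the highest and the lowest of such populations are given, so the differences are picked extremes. The share of all genes that meet this rule was not computed, so the count is a description. The differences themselves were not tested, since each group was 1 sample. Pax2 was 0.36 on the log2 scale in tubule cluster 3 and −1.44 in cluster 2, a difference of 1.80, and the second value was −0.39 without the cells with a muscle gene UMI. Gata3 was 1.68 in cluster 2 and −1.02 in the epithelial mesonephros, a difference of 2.70, at levels of 15.3 and 7.53 CPM in the latter. Without the cells with a muscle gene UMI the first value was 0.74 (−1.55 to 2.65), from 4 against 7 UMIs. That value stayed above 0, but its interval took in 0. Ret was 0.66 in adenosympathic cells and −3.18 in tubule cluster 1, a difference of 3.85. Cdh16 was 0.56 in cluster 1 and −1.19 in Mesonephros 4, a difference of 1.75. Epcam was 0.58 in the coelomic epithelium (22.5 and 33.8 CPM) and −1.53 in adrenal cells (19 and 4 UMIs), a difference of 2.11. Both belong to the non-nephric types that set the low levels, so neither can be read against those levels.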

How the results depend on the processing

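No paired analysis was possible because each group was 1 sample. Of the values that the settings above gave for 150 log2 ratios, 1072 stayed within their interval and 158 moved. The other 2 changed sign from a main ratio past 2-fold. They were Gata3 (0.18) and Wnt9b (0.10) in the E11.5 KO over the XY control, over all tubule cells at the XY control's cluster weights. Sign changes of smaller ratios were counted among those that stayed or moved. At these weights Cdh16 went from −0.63 to 0.22, Epcam from −0.16 to 0.20, Pax2 from −0.19 to 0.01 and Pax8 from 0.02 to −0.07. Lhx1 and Ret stayed below 0. Pax8 in SLCs moved in cells with at least 5000 UMIs, to −1.06 in the E11.5 KO over the XY control and to 1.23 in the E11.75 KO over the E11.5 KO. The other settings gave −0.76 to −0.51 for the first of these, and −4.35 to −2.13 for Ret in cluster 1. In SLCs the number of the 8 genes past 2-fold became, for the E11.5 KO over the XY control, 1 higher and 1 lower in those deep cells and 1 higher and 2 lower with no minimum. For the E11.75 KO over the E11.5 KO it became 1 higher by per-cell means, 1 higher and 0 lower in deep cells, 2 higher and 2 lower with no minimum, and 0 lower with a prior of 5 or a minimum of 50. In cluster 1 the same comparison had 1 higher with TMM factors, reduced totals or a prior of 5. The share of SLCs with a Pax8 UMI at 2000 UMIs was 23.5%, 16.2% and 25.6% in the XY samples, and at 5000 it was 51.5%, 29.6%, 52.3% and 48.8% with the XX control last. Without thinning it was 36.8% in the XY control, 30.3% in the E11.5 KO, 45.4% in the E11.75 KO and 70.5% in the XX control. The nearest genes kept were 3 by Spearman correlation and 8 with a pseudocount of 10. The 44 cells of cluster 1 in the E11.5 KO, and the 5 Ret UMIs in them, set the depth limit of that result.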
